A study of Mus musculus with 9 samples.

Results

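Genes of myeloid cytokine signalling were described across 9 libraries of mouse bone marrow cells: the receptor chain genes Il3ra, Csf2ra, Csf2rb, Csf2rb2, Csf3r, Il6ra and Il6st, and Cish, a target gene of the transcription factor STAT5. They were chosen by name and are 8 of the 21159 genes in the count table. All 8 passed the filter on low counts and so were among the 11196 genes tested.

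Receptors for IL-3 and GM-CSF pair an alpha chain that binds 1 cytokine with a beta chain that carries the signal, and the IL-6 receptor pairs its own alpha chain with gp130, the product of Il6st. None of these chains is an enzyme: cytokine binding activates attached JAK kinases, which phosphorylate STAT proteins that then move to the nucleus and bind DNA. STAT5 switches on Cish, whose protein CIS binds phosphorylated receptors and limits further signalling, and Cish transcript is therefore widely read as a sign of STAT5 activity. In marrow these cytokines support the growth, survival and maturation of myeloid progenitors, and IL-3, IL-6 and stem cell factor are common additives when such cells are cultured.

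All 9 libraries came from lineage-depleted bone marrow cells (Runx2fl/fl, CreERT2tg), in which both Runx2 alleles are floxed and a Cre recombinase is activated by 4-hydroxytamoxifen (4-OHT). Per the labels, such cells received a retrovirus encoding eGFP and the leukaemia fusion KMT2A-MLLT1 (MLL-ENL), were kept for 24 hours with stem cell factor at 50 ng/ml and IL-3 and IL-6 at 10 ng/ml each, and were then replated in methylcellulose every 7 days. The 3 BM progenitor libraries hold RNA from untreated cells collected ahead of the first replating, and whether these cells carried the fusion cannot be told from the labels. The 3 Runx2wt libraries are from transformed cells grown in suspension and given ethanol, and the 3 Runx2ko libraries are from transformed cells given 400 nM 4-OHT, for 24 hours per the design text. The sources used here do not give the promoter that drives the Cre, the floxed exon, the cytokines of the methylcellulose and suspension cultures or the age of the mice. Transformed cells differ from BM progenitor in transformation, passage and culture form at once, and 4-OHT, active Cre and the Runx2 deletion come together in Runx2ko, so their parts cannot be told apart. The labels call all samples independent biological replicates, and the same BM progenitor or Runx2wt libraries serve as the reference in more than 1 comparison.

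Libraries held 3118594 to 5348177 counts, and 14377 to 15634 genes had at least 1 count. Levels are given in CPM, counts of 3′ tags scaled to a common library size, where each transcript gives 1 tag whatever its length. Runx2, the targeted gene, stood at 53.3, 46.7 and 58.8 CPM in BM progenitor, 159.4, 178.8 and 131.0 CPM in Runx2wt and 21.0, 120.1 and 134.7 CPM in Runx2ko replicates 1 to 3. The tags may lie outside the deleted part, so these values do not check the deletion, and Runx2ko here means the libraries labelled so. Runx2ko replicate 1 stood apart from the other 8 libraries in its cell type markers. It held 5712 CPM of 17 mast cell and basophil markers, against 782.9 to 1778 CPM elsewhere, and 614.9 CPM of 15 monocyte and macrophage markers, against 4254 to 12980 CPM. Its 13 erythroid and megakaryocyte markers summed to 1587 CPM, against 10.35 to 105.3 CPM. The mast cell and basophil markers did not all move alike. In Runx2ko replicate 1 Cpa3 stood at 2002 CPM, against a mean of 75.9 CPM in BM progenitor. Mcpt8 and Hdc stood at 307 and 130 CPM in that library, against BM progenitor means of 384 and 237 CPM. The monocyte and macrophage markers also did not all move alike. Lyz2 and Ly6c2 stood at 254 and 199 CPM in that library, against BM progenitor means of 3350 and 1438 CPM. Fcgr1 stood at 24.3 CPM, the highest of the 9 libraries, and Adgre1 at 51.8 CPM, against BM progenitor means of 3.77 and 31.3 CPM. The extraction text in the labels names T-ALL cells, and the 11 T cell markers summed to 6.387 to 32.35 CPM, with Cd3e at 0 in 7 of the 9 libraries. Results below use all 9 libraries unless a fit without Runx2ko replicate 1 is named, and counts of calls are given from both fits.

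Sequence near the start of 2 of the genes is shown because Cish is read here as a STAT5 target. RefSeq promoter windows of the build GRCm38.p6, which run from 250 bases before to 50 bases after a gene's start, matched 7 of the 8 genes (all but Csf2rb). They were searched for the STAT motif TTCNNNGAA, which reads the same on both strands. The 30 bases around the motifs follow, 5′ to 3′ on the gene's strand, with the fixed letters of the motif in capitals. The Cish stretch lies at chr9:107296654-107296683 on the plus strand and the Csf2rb2 stretch at chr15:78305712-78305741 on the minus strand.
Cish: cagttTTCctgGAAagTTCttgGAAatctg
Csf2rb2: cacaaTTCtgaGAAgcaagcaaagctgctt
The Cish window held 2 matches, which begin 0 and 11 bases after the RefSeq start. In the GENCODE annotation the gene Cish begins 633 bases farther upstream. The 270 window bases at chr9:107296409-107296678, which include both matches, lie in its exons. The Csf2rb2 window held 1 match, which begins 15 bases before the start, and the windows of Il3ra, Csf2ra, Csf3r, Il6ra and Il6st held none. In GENCODE, Il3ra, Csf3r and Csf2ra also begin 220, 109 and 11 bases upstream of the RefSeq start. Their windows thus hold fewer bases ahead of the gene. Of 32851 mouse windows of this length, 8.3% held at least 1 match and 0.457% held at least 2. A match describes letters only and was not tested as a binding site.

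**Figure D1:**
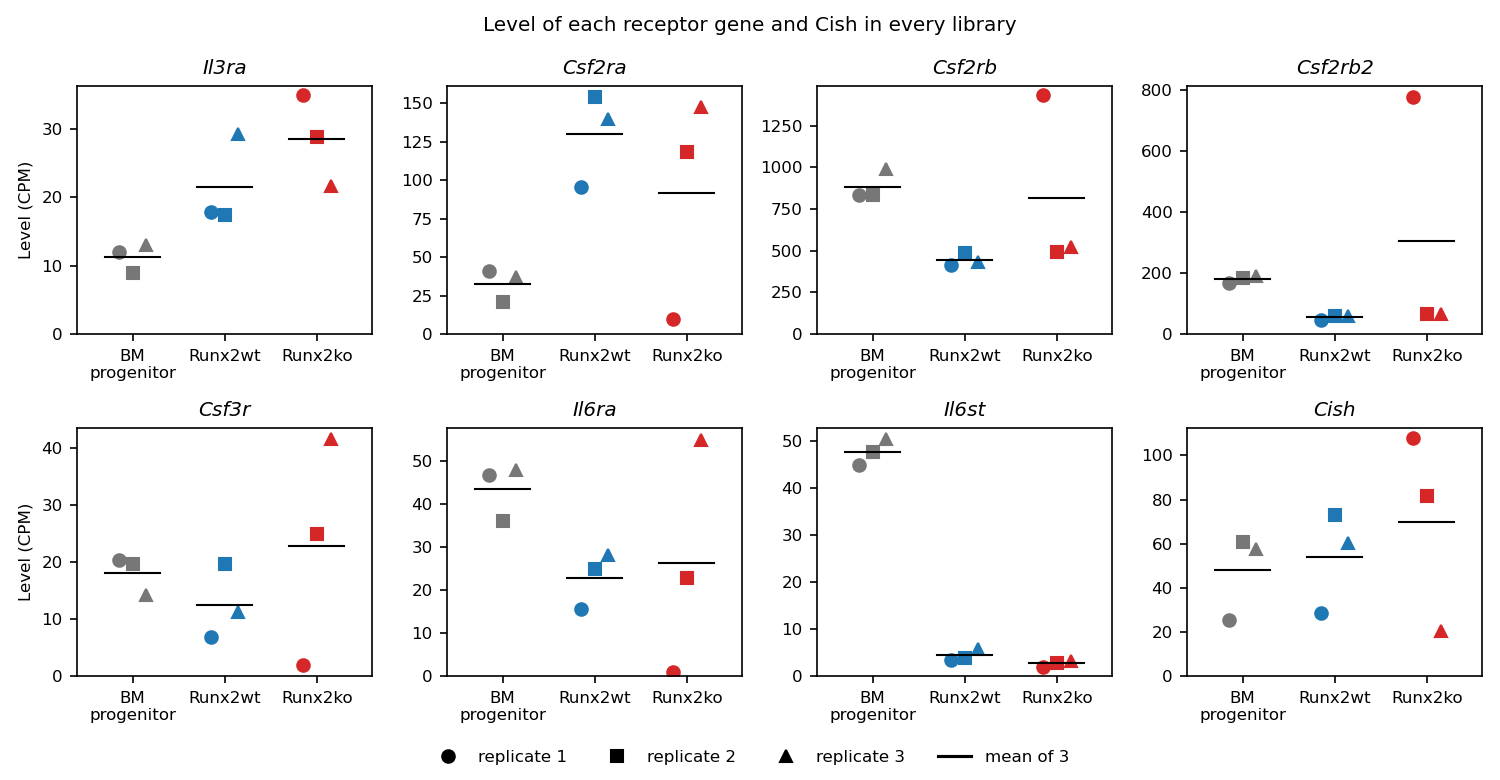
Level of each of the 8 genes in CPM (vertical axis, from 0, with its own scale per gene) in the 3 BM progenitor, 3 Runx2wt and 3 Runx2ko libraries, each point a library and each line the mean of 3. Il6st lay between 44.9 and 50.3 CPM in BM progenitor and at most at 5.84 CPM in transformed libraries, and Runx2ko replicate 1 (circle) lay apart from replicates 2 and 3 for Csf2ra, Csf2rb, Csf2rb2, Csf3r and Il6ra.

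Il3ra, the alpha chain of the IL-3 receptor (ENSMUSG00000068758, chr14:14346275-14356011, plus strand, GRCm38), was measured at 12.04, 8.90 and 13.0 CPM in BM progenitor replicates 1 to 3. The Runx2wt libraries had 17.9, 17.5 and 29.2 CPM and the Runx2ko libraries 34.9, 28.7 and 21.7 CPM. All 6 transformed libraries lay above all 3 BM progenitor libraries, while Runx2wt and Runx2ko overlapped. The means were 11.3 ± 2.13, 21.5 ± 6.67 and 28.5 ± 6.63 CPM (SD, n = 3 each), in the order BM progenitor, Runx2wt, Runx2ko. Against BM progenitor, Il3ra rose in Runx2ko by a log2 fold change of 1.32 (SE 0.30, 2.50-fold, edgeR adjusted p = 0.0196). In Runx2wt the log2 fold change was 0.92 (SE 0.30, edgeR adjusted p = 0.0688), which did not pass at 0.05, and without Runx2ko replicate 1 it was 0.91 with an adjusted p of 0.0345, which did. The call in Runx2ko was lost when any 1 of the 3 BM progenitor libraries was left out, with an edgeR adjusted p up to 0.0852. Those fits called 3.53% to 4.32% of all genes, against 17.2% over 9 libraries.

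Csf2ra, the alpha chain of the GM-CSF receptor (ENSMUSG00000059326, chr19:61223957-61228429, minus strand), stood at 40.7, 20.5 and 37.2 CPM in BM progenitor and at 95.4, 154.1 and 139.9 CPM in Runx2wt. In Runx2ko it stood at 9.70, 118.2 and 147.7 CPM. Runx2wt and Runx2ko replicates 2 and 3 all lay above BM progenitor, whereas Runx2ko replicate 1 was the lowest of the 9 libraries. Means were 32.8 ± 10.8 CPM in BM progenitor, 129.8 ± 30.6 CPM in Runx2wt and 91.9 ± 72.7 CPM in Runx2ko (SD, n = 3 each), and the Runx2ko mean without replicate 1 was 132.9 CPM. Over 9 libraries the log2 fold change of Runx2wt against BM progenitor was 1.98 (SE 0.72, edgeR adjusted p = 0.0949), which did not pass. Without Runx2ko replicate 1, Csf2ra rose in Runx2wt by 1.97 (SE 0.27, 3.92-fold, edgeR adjusted p = 0.000385) and in Runx2ko by 2.00 (SE 0.28, edgeR adjusted p = 0.000697) on the log2 scale. The estimate in Runx2wt thus stayed near 1.98 while its standard error went from 0.72 to 0.27, in fits where all groups share 1 estimate of the spread.

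Both beta chain genes ran lower in most transformed libraries. Csf2rb encodes the beta chain shared by the IL-3, GM-CSF and IL-5 receptors (ENSMUSG00000071713, chr15:78325752-78353847, plus strand). It stood at 831, 835 and 987 CPM in BM progenitor, 414, 484 and 435 CPM in Runx2wt and 1436, 489.8 and 519 CPM in Runx2ko. All Runx2wt libraries lay below all BM progenitor libraries, as did Runx2ko replicates 2 and 3, whereas Runx2ko replicate 1 was the highest of the 9. Means were 884 ± 88.8 CPM in BM progenitor, 444 ± 35.7 CPM in Runx2wt and 815 ± 538 CPM in Runx2ko (SD, n = 3 each), and 504.6 CPM in Runx2ko without replicate 1.

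Csf2rb2 encodes a second beta chain that in mice serves the IL-3 receptor alone, and it lies next to Csf2rb on the opposite strand (ENSMUSG00000071714, chr15:78282507-78305721, minus strand). It stood at 168.6, 184.5 and 190.1 CPM in BM progenitor, 46.9, 58.8 and 58.1 CPM in Runx2wt and 777, 67.0 and 66.4 CPM in Runx2ko. The 3 groups did not overlap once Runx2ko replicate 1 was left aside, with BM progenitor highest and Runx2wt lowest. Means were 181.1 ± 11.1 CPM in BM progenitor, 54.6 ± 6.70 CPM in Runx2wt and 303.4 ± 410.1 CPM in Runx2ko (SD, n = 3 each), and 66.7 CPM in Runx2ko without replicate 1.

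In the fit of 9 libraries neither beta chain passed in Runx2wt against BM progenitor. The log2 fold change was -0.99 for Csf2rb (SE 0.37, edgeR adjusted p = 0.0982) and -1.73 for Csf2rb2 (SE 0.82, edgeR adjusted p = 0.181). Without Runx2ko replicate 1 both passed, at -0.996 (SE 0.14, edgeR adjusted p = 0.000585) and -1.73 (SE 0.16, edgeR adjusted p = 3.13e-05). Both were also lower there in Runx2ko than in BM progenitor, by log2 fold changes of -0.81 for Csf2rb (SE 0.16, edgeR adjusted p = 0.00431) and -1.44 for Csf2rb2 (SE 0.18, edgeR adjusted p = 0.000278). With all 9 libraries the values for Runx2ko were -0.12 (SE 0.36, edgeR adjusted p = 0.852) and 0.74 (SE 0.80, edgeR adjusted p = 0.551), so the direction of Csf2rb2 turned on Runx2ko replicate 1.

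The balance between the beta chains also differed. Csf2rb2 made up 16.9%, 18.1% and 16.2% of the counts of both genes in BM progenitor, 10.2%, 10.8% and 11.8% in Runx2wt and 35.1%, 12.03% and 11.3% in Runx2ko. The share was thus lower in every transformed library than in BM progenitor except in Runx2ko replicate 1, where it was highest. The longest transcripts of both genes were 91.2% identical over 4635 aligned bases, so reads could be split between them. Within the last 1000 bases, where 3′ tags are expected, 0 of the 951 words of 50 bases of either transcript occurred in the other. The sources used here give neither the read length nor the counting rule, and a shift of reads between the genes was not tested further.

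**Figure D2:**
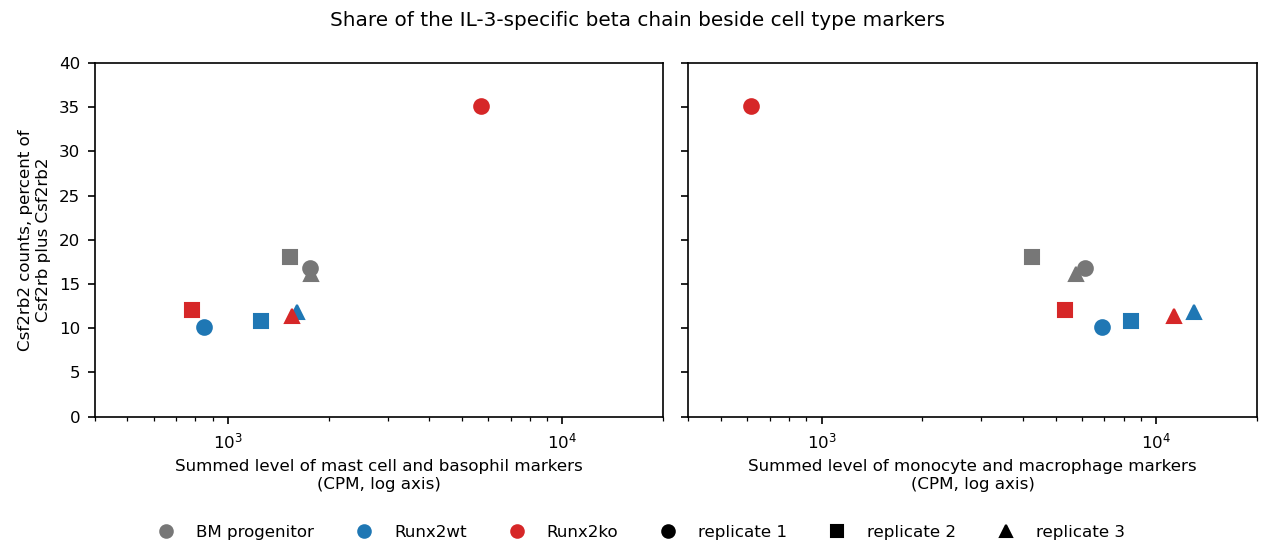
Csf2rb2 counts as a percent of Csf2rb plus Csf2rb2 counts (vertical axis, from 0) beside the summed CPM of mast cell and basophil markers (left, log axis) and of monocyte and macrophage markers (right, log axis), each point a library. Runx2ko replicate 1 sits alone at 35.1%, with 5712 CPM on the left and 614.9 CPM on the right, and the other transformed libraries lie between 10.2% and 12.03%.

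Csf3r, the G-CSF receptor of the neutrophil lineage (ENSMUSG00000028859, chr4:126024550-126044440, plus strand), stood at 20.3, 19.7 and 14.2 CPM in BM progenitor, 6.77, 19.7 and 11.1 CPM in Runx2wt and 1.94, 24.9 and 41.5 CPM in Runx2ko. Groups overlapped in all comparisons of 9 libraries, and the means of 18.1 ± 3.33, 12.5 ± 6.56 and 22.8 ± 19.9 CPM (SD, n = 3 each) did not differ beyond that spread. Without Runx2ko replicate 1, where Csf3r was lowest, the log2 fold change of Runx2ko against Runx2wt was 1.42 (SE 0.40) with an unadjusted p of 0.00436 and an edgeR adjusted p of 0.35, which did not pass. The 14 neutrophil markers stood at 917.3 CPM in Runx2ko replicate 1, against 1763 to 4614 CPM in Runx2wt, 6228 to 10680 CPM in Runx2ko replicates 2 and 3 and 12240 to 16540 CPM in BM progenitor. The part of these cells in the Csf3r level was not tested.

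Il6ra, the alpha chain that binds IL-6 (ENSMUSG00000027947, chr3:89864059-89913196, minus strand), stood at 46.7, 36.1 and 48.0 CPM in BM progenitor, 15.6, 24.9 and 28.1 CPM in Runx2wt and 0.970, 22.8 and 55.0 CPM in Runx2ko. The Runx2wt libraries all lay below BM progenitor, while Runx2ko spanned both, from the lowest to the highest value of the series. Over 9 libraries the log2 fold change of Runx2wt against BM progenitor was -0.94 (SE 0.81, edgeR adjusted p = 0.456), and without Runx2ko replicate 1 it was -0.95 (SE 0.32, edgeR adjusted p = 0.0459), which passed. Against BM progenitor, Runx2ko without replicate 1 gave -0.18 (SE 0.35, edgeR adjusted p = 0.724), so Il6ra alone among the genes called in Runx2wt in that fit was not also called in Runx2ko, a difference that did not pass its own test (Runx2ko against Runx2wt 0.76, adjusted p = 0.646). Runx2ko replicate 1 had 0.970 CPM of Il6ra beside the lowest sum of monocyte and macrophage markers, 14 of 15 of which had a count there, and the part of these cells in its level was not tested.

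Il6st, which encodes gp130, the signalling chain shared by the receptors for IL-6, IL-11, LIF and oncostatin M (ENSMUSG00000021756, chr13:112464070-112510086, plus strand), fell in both transformed groups. It stood at 44.9, 47.7 and 50.3 CPM in BM progenitor, 3.39, 3.88 and 5.84 CPM in Runx2wt and 1.94, 2.85 and 3.25 CPM in Runx2ko. The groups did not overlap in any comparison, and BM progenitor values were close together. Raw counts were 246, 177 and 237 in BM progenitor, 18, 14 and 21 in Runx2wt and 6, 15 and 12 in Runx2ko, so the transformed levels rest on few tags. Means were 47.7 ± 2.72, 4.37 ± 1.30 and 2.68 ± 0.672 CPM (SD, n = 3 each).

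Against BM progenitor the log2 fold change of Il6st was -3.45 in Runx2wt (SE 0.29, 10.9-fold lower, edgeR adjusted p = 0.000529) and -4.12 in Runx2ko (SE 0.31, 17.4-fold lower, edgeR adjusted p = 0.000445). Runx2ko replicate 1, which was unlike the other libraries for 5 of the genes, was as low for Il6st as replicates 2 and 3, and without it the log2 fold changes were -3.46 and -3.96. Of the 11196 genes tested, 207 (1.85%) fell at least as far in Runx2wt and 57 (0.509%) in Runx2ko. Runx2ko against Runx2wt gave -0.67 (SE 0.31, edgeR adjusted p = 0.636), which did not pass although the groups did not overlap. In these bulk libraries fewer cells of a type and less RNA per cell cannot be told apart. The sum of 9 eosinophil markers moved the same way, at 1382 to 1844 CPM in BM progenitor and 2.771 to 19.41 CPM in transformed libraries. So did that of 12 dendritic cell markers, at 546.7 to 621.6 CPM and 76.98 to 203.8 CPM, and that of 14 neutrophil markers, at 12240 to 16540 CPM and 917.3 to 10680 CPM. In edgeR over 9 libraries, 8 of 9 eosinophil, 6 of 10 dendritic cell and 3 of 14 neutrophil markers tested were called lower in Runx2wt. None was called higher, but not every marker fell. Mean Itgax, a dendritic cell marker, was 13.7 CPM in BM progenitor and 19.9 CPM in Runx2wt, and mean Lcn2, a neutrophil marker, 94.7 and 226 CPM. The part of these cells in the fall of Il6st was not tested.

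Cish (ENSMUSG00000032578, chr9:107296026-107302784, plus strand) differed more within groups than between them. It stood at 25.4, 60.7 and 57.6 CPM in BM progenitor, 28.4, 73.2 and 60.4 CPM in Runx2wt and 108.0, 81.4 and 20.6 CPM in Runx2ko. Each group held 1 library at 20.6 to 28.4 CPM, and the highest value was that of Runx2ko replicate 1. That library had the highest beta chain levels and the lowest levels of Csf2ra, Csf3r, Il6ra and Il6st. Means were 47.9 ± 19.6, 54.0 ± 23.1 and 70.0 ± 44.8 CPM (SD, n = 3 each). Log2 fold changes were 0.17 for Runx2wt against BM progenitor (SE 0.58, edgeR adjusted p = 0.864), 0.38 for Runx2ko against Runx2wt (SE 0.57, edgeR adjusted p = 0.889) and 0.55 for Runx2ko against BM progenitor (SE 0.57, edgeR adjusted p = 0.54). A difference of 1 on the log2 scale is under 2 of these standard errors, so the misses do not show equal levels.

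The highest Cish level of a group was 2.39 times the lowest in BM progenitor, 2.58 times in Runx2wt and 5.24 times in Runx2ko. Among genes with a mean of at least 10 CPM, 2.09%, 6.5% and 8.38% were at least as spread in these groups. The low libraries were BM progenitor replicate 1, Runx2wt replicate 1 and Runx2ko replicate 3. The same 3 libraries were lowest in their groups for 332 other genes (3.97%), and for 3 of 18 feedback and target genes of STAT5 and STAT3, namely Pim1, Pim3 and Ccnd2. Cish shares exon bases with Gm17040 on the opposite strand, which had 11 counts in all libraries together.

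**Figure D3:**
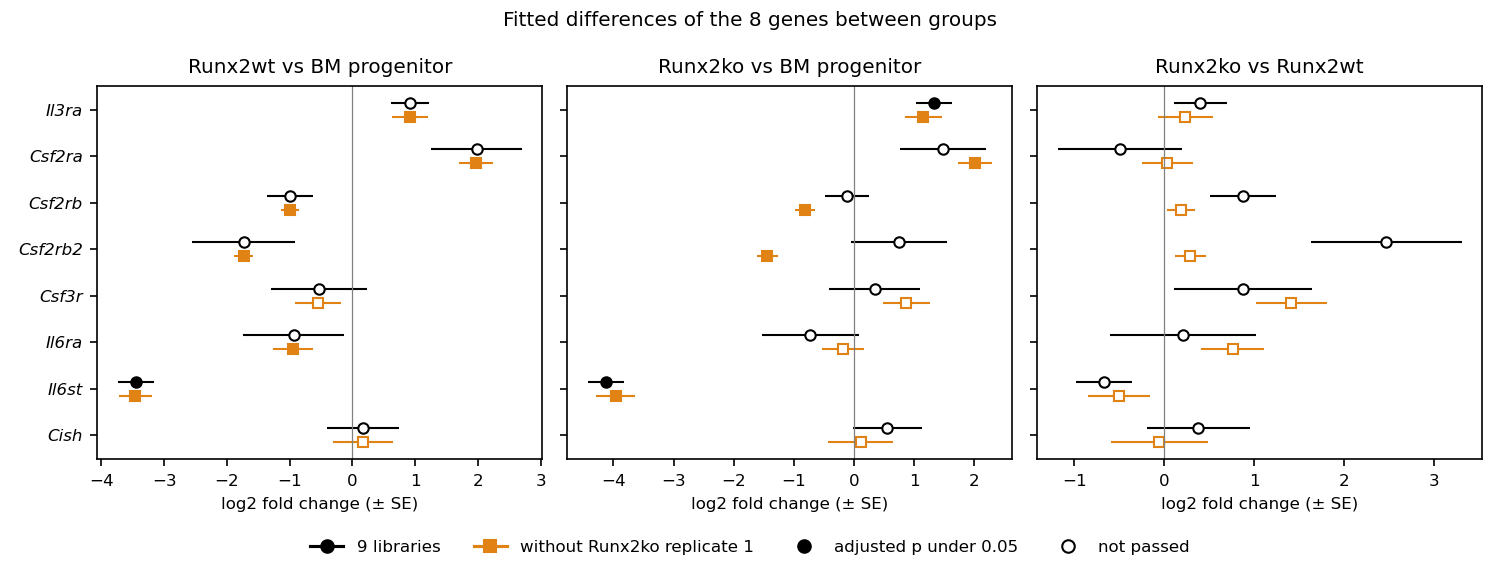
Log2 fold changes of the 8 genes (horizontal axis, with standard errors) in 3 comparisons, fitted over 9 libraries (black circles) and without Runx2ko replicate 1 (orange squares), filled where the edgeR adjusted p was under 0.05. Il6st is filled at -3.45 and -4.12 against BM progenitor, no gene is filled in Runx2ko against Runx2wt, and Csf2rb2 against BM progenitor in Runx2ko moves from 0.74 to -1.44.

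Counted over the 8 genes, Runx2wt against BM progenitor gave 1 call in 9 libraries (Il6st, lower), where 13.5% of all genes tested were called by edgeR. Groups did not overlap for 6 of the 8, all but Csf3r and Cish, against 49.3% of all genes. Without Runx2ko replicate 1, 6 of 8 were called, against 28% of all genes: Il3ra and Csf2ra rose, and Csf2rb, Csf2rb2, Il6ra and Il6st fell. A fit of only the 6 libraries compared called the same 6 genes in the same directions, against 33.9% of all genes. The median log2 fold change of the 8 genes was -0.74 over 9 libraries, and that of all genes was 0.01.

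Runx2ko against BM progenitor gave 2 calls of 8 (Il3ra higher, Il6st lower), against 17.2% of all genes. The same 2 genes were those whose groups did not overlap, against 38.4% of all genes. With Runx2ko replicate 1 set aside, groups did not overlap for 6 of the 8, all but Il6ra and Cish, against 58.6% of all genes. When Runx2ko replicate 1 was left out, 5 of 8 were called, against 28.5% of all genes. These were Il3ra, Csf2ra, Csf2rb, Csf2rb2 and Il6st, each in the direction seen in Runx2wt, a comparison that shares the BM progenitor libraries.

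Runx2ko against Runx2wt asks what 4-OHT treatment changed in transformed cells, and edgeR called 0 of the 8 genes, against 0% of all genes tested. At an unadjusted p under 0.05 there were 2 of the 8, Csf2rb (log2 fold change 0.88, SE 0.37) and Csf2rb2 (2.47, SE 0.84), and 886 of all genes. DESeq2 called 46 of all genes and limma-voom 0, and neither called a gene of the 8. DESeq2 gave Csf2rb2 no adjusted p, however, and so could not call it. Groups did not overlap for 3 of the 8, with Csf2rb and Csf2rb2 higher and Il6st lower in Runx2ko, against 9.68% of all genes, and for 4 of the 8 with Runx2ko replicate 1 set aside, Csf3r being the other, against 19.2% of all genes. Without Runx2ko replicate 1 the log2 fold changes of Csf2rb and Csf2rb2 were 0.18 (SE 0.16) and 0.29 (SE 0.17), again 0 of 8 were called, against 0.043% of all genes, and 1 of the 8, Csf3r, had an unadjusted p under 0.05, as had 919 of the 11636 genes tested.

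Genes that act with these receptors were called in both directions against BM progenitor. Background shares for the lists are those given for the 8 genes: 13.5% (Runx2wt) and 17.2% (Runx2ko) of all genes over 9 libraries, and 28% and 28.5% without Runx2ko replicate 1. Without any 1 BM progenitor library they were only 1.82% to 2.87% (Runx2wt) and 3.53% to 4.32% (Runx2ko). Without any 1 Runx2wt library they were 3.44% to 7.63% and 13% to 14.6%. Without Runx2ko replicate 2 they were 13.5% and 15.6%, and without replicate 3 17.5% and 11%. Lower list counts in such fits are thus to be read beside these shares. Of 11 JAK and STAT genes, 0 passed in edgeR over 9 libraries in Runx2wt against BM progenitor, with 3 at an unadjusted p under 0.05, while DESeq2 called 1 and limma-voom 0, and the median log2 fold change was 0.24. Of all 11196 genes tested, 3558 had an unadjusted p under 0.05 there, and DESeq2 called 21.6% and limma-voom 13.2%. In Runx2ko against BM progenitor 0 of the 11 passed over 9 libraries, with 1 at an unadjusted p under 0.05 and 0 by DESeq2 and limma-voom. Of all genes tested, 3746 had an unadjusted p under 0.05 in that comparison, and DESeq2 called 24% and limma-voom 16.8%. In the fit without Runx2ko replicate 1, 3 of 11 were called in each transformed group (2 higher and 1 lower, 27.3%), a share close to that of all genes. In that fit Stat3, the main STAT of gp130, rose in Runx2wt by 0.51 on the log2 scale (SE 0.16, edgeR adjusted p = 0.0314). Stat5a, 1 of the pair of STAT5 genes, fell by 0.69 on the log2 scale in Runx2wt (SE 0.18, edgeR adjusted p = 0.0179) and had the same value in Runx2ko (-0.69, SE 0.21, edgeR adjusted p = 0.0288). Stat5a stood at 86.7, 73.4 and 74.3 CPM in BM progenitor, 51.2, 41.0 and 53.7 CPM in Runx2wt and 98.0, 41.1 and 56.1 CPM in Runx2ko, so that Runx2ko replicate 1 was again the highest library.

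Of 21 feedback and target genes of STAT5 and STAT3 other than Cish, 2 rose and 1 fell in Runx2wt against BM progenitor over 9 libraries (14.3%, near the share of all genes), and 5 rose and 3 fell without Runx2ko replicate 1 (38.1%). The count was 1 when any 1 BM progenitor library was left out, and also without Runx2wt replicate 2. Id1, an inhibitor of helix-loop-helix factors, rose from 31.0, 51.5 and 54.2 CPM in BM progenitor to 190.03, 194 and 166 CPM in Runx2wt (log2 fold change 2.01, SE 0.24, edgeR adjusted p = 0.00274). Among the PIM survival kinases, Pim1 rose by 1.10 (SE 0.27, edgeR adjusted p = 0.0298) and Pim3 changed by -1.91 (SE 0.43, edgeR adjusted p = 0.0231) on the log2 scale. Pim2 changed by -1.84 (SE 0.38, edgeR adjusted p = 0.00464) when Runx2ko replicate 1 was left out, so the 3 PIM genes did not share a direction. In Runx2ko against BM progenitor over 9 libraries 3 rose and 0 fell: Id1 by 1.90, Pim1 by 1.20 and Bcl2l1, which encodes the survival protein BCL-XL, by 0.90 (edgeR adjusted p = 0.00269, 0.0187 and 0.0317). Without Runx2ko replicate 1, 4 rose and 4 fell there, and when any 1 BM progenitor library was left out the count was 1. The median log2 fold change of the list was 0.05 in Runx2wt and 0.19 in Runx2ko against BM progenitor, and that of all genes 0.01 and 0.07. For Runx2ko without replicate 1 the list's median was -0.04, so its sign turned on that library.

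Of 24 adaptors, kinases and phosphatases that sit at cytokine receptors, 2 rose and 0 fell in Runx2wt against BM progenitor over 9 libraries (8.33%, below the share of all genes). They were Ptprc, the phosphatase CD45 (log2 fold change 0.90, SE 0.24, edgeR adjusted p = 0.0377), and Pik3r1, a regulatory subunit of PI3 kinase (0.80, SE 0.22, edgeR adjusted p = 0.0443). Lyn, a Src family kinase, also rose when Runx2ko replicate 1 was left out (1.04, SE 0.20, edgeR adjusted p = 0.00303), and 3 rose and 1 fell in all (16.7%, again below the share of all genes). The count was 0 with the replicate number as a block, and when any 1 BM progenitor library, any 1 Runx2wt library or Runx2ko replicate 2 was left out. Of all genes, 8.24% were called with the block and 1.82% to 2.87% without a BM progenitor library. Without a Runx2wt library the share was 3.44% to 7.63%, and without Runx2ko replicate 2 it was 13.5%. In Runx2ko against BM progenitor 1 rose over 9 libraries, the adaptor gene Gab2 (1.26, SE 0.28, edgeR adjusted p = 0.0189). There the count was 0 when any 1 BM progenitor library was left out, 3 without Runx2ko replicate 1, 3 without replicate 2 and 2 without replicate 3.

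Of 26 other cytokine receptor genes tested, 3 rose and 1 fell in Runx2wt against BM progenitor (15.4%, near the share of all genes), and 12 of 28 rose and 4 fell without Runx2ko replicate 1 (57.1%). In Runx2ko 6 rose and 1 fell over 9 libraries (26.9%), and 11 rose and 1 fell without Runx2ko replicate 1 (42.9%). When any 1 BM progenitor library was left out, 0 passed in Runx2wt and 1 or 2 in Runx2ko. The Runx2wt count also went to 2 without Runx2wt replicate 2 and to 9 without Runx2ko replicate 3, and the Runx2ko count to 4 without Runx2wt replicate 1, Runx2wt replicate 2 or Runx2ko replicate 3. Crlf2, the TSLP receptor chain, stood at 81.0, 82.3 and 85.8 CPM in BM progenitor, 185, 219 and 240.4 CPM in Runx2wt and 438, 209 and 259.9 CPM in Runx2ko, and rose in both transformed groups (log2 fold changes 1.37 and 1.86, edgeR adjusted p = 0.0127 and 0.00406). Flt3, the receptor for FLT3 ligand on early progenitors, stood at 6.57, 10.3 and 7.65 CPM in BM progenitor and at no more than 0.647 CPM in any transformed library, and passed as lower in both (edgeR adjusted p = 0.0126 and 0.0119). Ghr, the growth hormone receptor, was at 0, 0 and 0.850 CPM in BM progenitor and at 11.3, 33.3 and 14.5 CPM in Runx2wt (edgeR adjusted p = 0.0137). The list had a median log2 fold change of 0.45 in Runx2wt and 0.54 in Runx2ko against BM progenitor, and 0.29 and 0.53 without Runx2ko replicate 1.

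Among other chains that pair with gp130, Lifr and Osmr were at low levels, whereas Il11ra1 was not. Lifr, the LIF receptor, had 0.912, 4.05 and 2.97 CPM in BM progenitor and at no more than 0.571 CPM in a transformed library, and Osmr, the oncostatin M receptor, was at 0 in 7 of the 9 libraries. Neither passed the filter on low counts in the fit of 9 libraries. Il11ra1, the IL-11 receptor alpha chain, stood at 38.7, 30.8 and 37.4 CPM in BM progenitor, 39.7, 28.0 and 20.3 CPM in Runx2wt and 9.06, 41.3 and 38.8 CPM in Runx2ko.

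Among 10 cytokine genes tested, 1 rose and 1 fell in Runx2wt against BM progenitor (20% of the list), and 1 rose and 4 fell without Runx2ko replicate 1 (50%). The count was 0 when any 1 BM progenitor library was left out and 1 when any 1 Runx2wt library was. In Runx2ko 0 rose and 1 fell over 9 libraries, 0 rose and 4 fell without Runx2ko replicate 1, and 0 passed without any 1 BM progenitor library or without Runx2ko replicate 2 or 3. Csf1, the macrophage growth factor M-CSF, rose (log2 fold change 2.30, SE 0.52, edgeR adjusted p = 0.0231) and stood at 72.3, 68.7 and 289 CPM in Runx2wt against 30.5, 23.7 and 32.9 CPM in BM progenitor. Clcf1, a cytokine of the gp130 family, had 4.74, 6.74 and 2.76 CPM in BM progenitor but at most 0.277 CPM in Runx2wt, and passed as lower (edgeR adjusted p = 0.0222). Il6 itself stood at 10.0, 15.4 and 22.1 CPM in BM progenitor, 0, 0 and 8.62 CPM in Runx2wt and 35.9, 0.952 and 1.08 CPM in Runx2ko, and did not pass over 9 libraries. In Runx2ko against Runx2wt edgeR called 0 genes of any of these 5 lists, with and without Runx2ko replicate 1, as did DESeq2 and limma-voom over 9 libraries. At an unadjusted p under 0.05 over 9 libraries there were 0 of 11 JAK and STAT genes and 1 of 21 feedback and target genes. There were also 4 of 24 adaptors, kinases and phosphatases, 4 of 26 receptors and 2 of 10 cytokines. Of all 11196 genes tested, 886 had such a p.

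**Figure D4:**
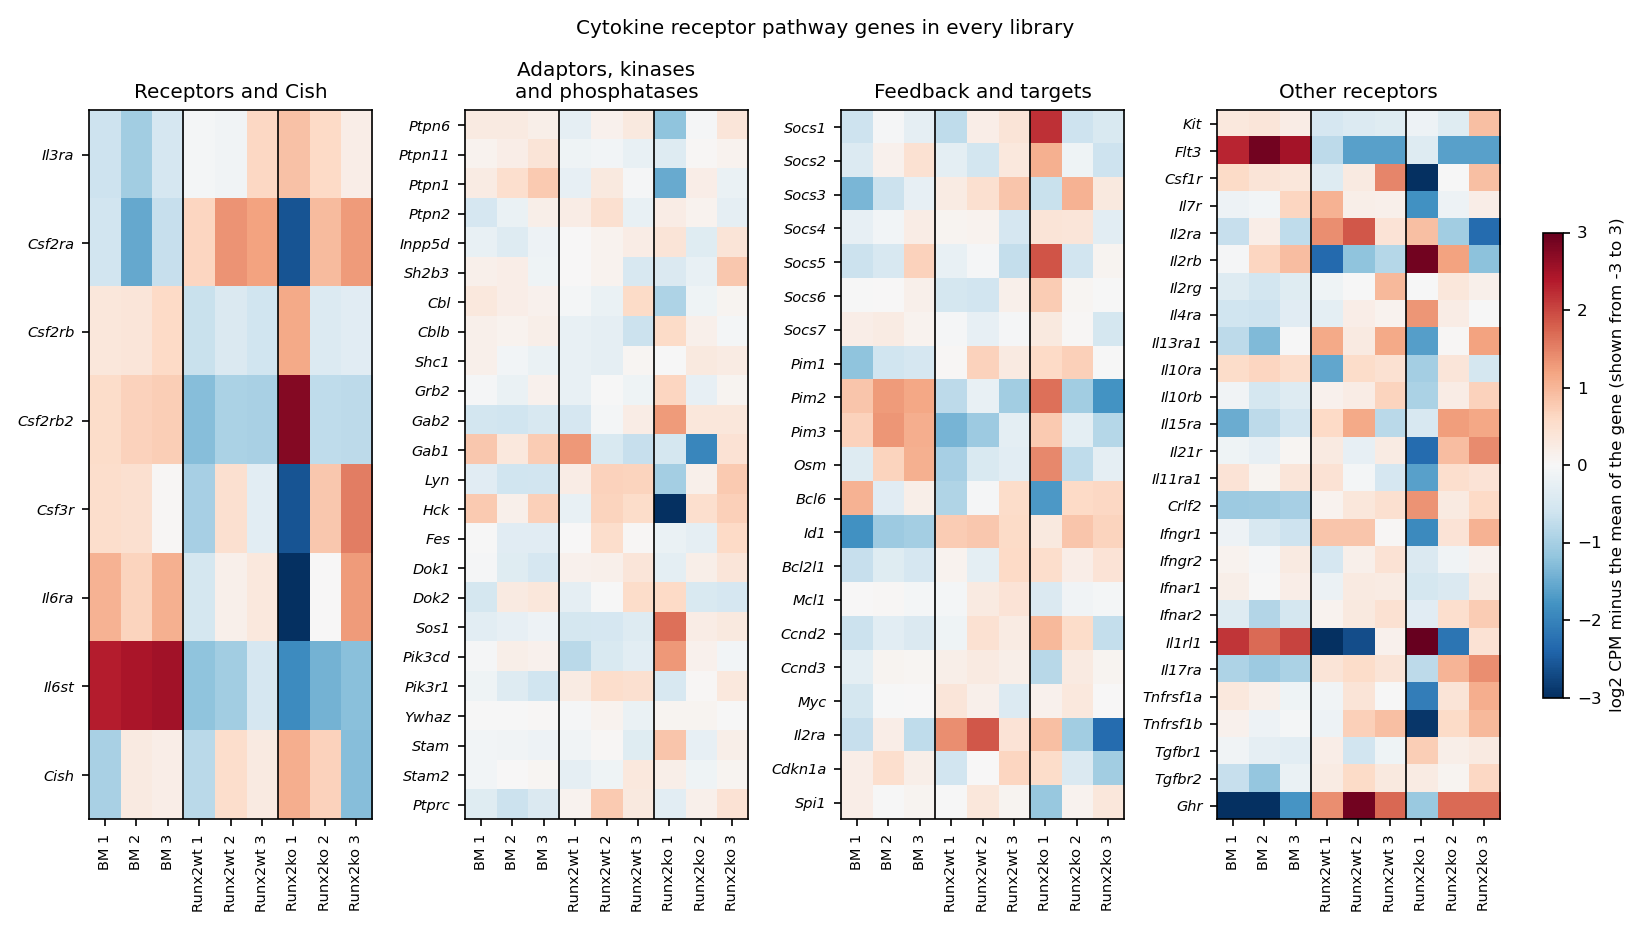
Log2 CPM of each gene minus its own mean over 9 libraries (colour, from -3 in blue to 3 in red) for the 8 genes, 24 adaptors, kinases and phosphatases, 21 feedback and target genes and the other cytokine receptors tested, with 1 column per library and black lines between groups. The Il6st row turns from red in BM progenitor to blue in all 6 transformed libraries, and the Runx2ko 1 column departs from Runx2ko 2 and 3 for Csf2ra, Csf2rb2, Csf3r and Il6ra.

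Genes with the most similar pattern were found for each of the 6 genes called in at least 1 fit, by the root mean square difference of centred log2 CPM over the 9 libraries among 8356 genes. The nearest to Il3ra was Zc3hav1 (0.19), to Csf2ra Pilrb2 (0.22), to Csf2rb Kpna4 (0.17) and to Csf2rb2 Tiam1 (0.30). Il6ra was nearest to Clec4a2 (0.25). Il6st had no gene as near: its closest was Ifi30 (0.48). The distance is not scaled to the size of a gene's changes, and Il6st rests on few tags in transformed libraries. The larger value for Il6st therefore does not show a pattern of its own. These distances describe 9 libraries and carry no test.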

How the data were processed

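QuantSeq 3′ mRNA-seq libraries were made from 500 ng of RNA each, per the labels' protocols. The authors deposited a table of raw counts by Ensembl gene and a second one of normalized values, found to be the counts divided by a constant for each library. The submitters' processing notes name FastQC, STAR, DESeq2 and GRCm38. Versions, counting program, annotation release and use of strand were not given in the sources used here, so overlapping genes may share reads. GENCODE M21 symbols matched 21042 of 21159 identifiers.

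The deposited counts entered the quasi-likelihood F-test of edgeR 4.0.16 (R 4.3.3), with TMM factors, filterByExpr (11196 genes left), 1 mean per group and 1 spread over 9 libraries. Calls needed a Benjamini-Hochberg adjusted p under 0.05 over all genes tested. Standard errors came from the F statistic and CPM from TMM-scaled library sizes. Alternatives were RLE and upper-quartile factors, other filters, limma 3.58.1 (voom, and log2 of the authors' normalized values plus 1), DESeq2 1.42.0, only the compared groups, a replicate block, added beta chain counts, and each library left out in turn, as in the fit without Runx2ko replicate 1 (11636 genes). Same-numbered libraries did not deviate together (correlations -0.0659 to 0.0718), so numbers were not taken as pairs. Within groups, libraries differed by more than sampling noise.

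The 8 genes, pathway lists and marker lists were chosen with earlier results of these data known. Up to 3 genes with the smallest p among those that passed were named per list. Lifr, Osmr, Il11ra1, Il6 and Cd3e were named after their values were seen. A gene of these lists is not reported here.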

Additional observations from a re-analysis of the deposited data

How the results depend on the processing

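Of 432 values of the 8 genes under alternative settings, 396 kept their direction and their side of the threshold, 15 passed newly, 3 no longer passed and 18 changed sign. Il6st kept its call against BM progenitor in all 18 settings of each comparison (edgeR, limma or DESeq2 adjusted p at most 0.00677 in Runx2wt and 0.00568 in Runx2ko). For Runx2wt against BM progenitor, 1 gene was called in 9 libraries, 4 by DESeq2 (which gave Csf2rb2 no adjusted p), 6 with only the compared groups and 1 to 6 when a library was left out, with 6 without Runx2ko replicate 1. For Runx2ko against BM progenitor, 2 were called, and 1 to 5 when a library was left out: 1 without each BM progenitor library in turn, 5 without Runx2ko replicate 1. Runx2ko against Runx2wt gave 0 in every setting. With the replicate number as a block, 1, 0 and 2 genes were called, in the order Runx2wt against BM progenitor, Runx2ko against Runx2wt, Runx2ko against BM progenitor, and the block changed no call of the 8 genes. The log2 fold changes that changed sign belonged to genes that did not pass, except Csf2rb2 without Runx2ko replicate 1, and the cause was not tested. With limma-voom they were -0.693 (Il6ra, Runx2ko against Runx2wt), -0.296 (Csf2rb2) and -0.261 (Csf3r), the last pair against BM progenitor. In the same order, the authors' normalized values gave -0.961, -0.271 and -0.471. The block gave -0.159 for Il6ra and -0.106 for Csf3r, and adding both beta chain counts gave 0.0697 for Runx2ko against BM progenitor. When a library was left out, Cish ran from -0.136 to 0.463 in Runx2wt against BM progenitor. In Runx2ko against Runx2wt, Csf2ra ran from -1.001 to 0.0348, Il6ra from -0.872 to 0.763 and Cish from -0.0563 to 0.813. In Runx2ko against BM progenitor, Csf2rb ran from -0.813 to 0.126, Csf2rb2 from -1.44 to 1.21 and Csf3r from -0.387 to 0.869. Over all genes, calls in Runx2wt against BM progenitor numbered 1513 in 9 libraries, 3679 with only the compared groups, 2390 by DESeq2, 922 with the block and 209 to 3256 when a library was left out. In Runx2ko against BM progenitor they numbered 1924, 1262 with only the compared groups, 1120 with the block and 405 to 3311 when a library was left out, and limma-voom moved the share of higher calls from 58.5% to 47.4%.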
